A study of Mus musculus with 27 samples.

Results

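Macrophage and microglia marker genes were followed in medulloblastoma grafts through 13 probe sets of 10 genes, of the 45101 probe sets in the deposited expression table. The probe sets were taken by identifier, with 1 each for Cd68, Adgre1, Tyrobp, C1qa, C1qc, Ctss, Fcer1g and Cd14, 2 for C1qb and 3 for Csf1r. Their gene names come with that list of identifiers, since the tables used here pair no other probe set with a gene. All 21 tumours profiled for RNA were used, 1 tumour per Affymetrix mouse array. The tumours descended from medulloblastoma of Ptch+/-p53-/- mice. Dissociated tumour cells were inoculated subcutaneously into the flank of nude (nu/nu) mice, a host that lacks a thymus but keeps its macrophages. Vehicle groups comprised 3 tumours harvested after 4 h, 3 after 16 h and 2 after 48 h. NVP-LDE225 (LDE225), an antagonist of the Hedgehog pathway protein Smo, was given once a day at 20 mg/kg/day to tumours still sensitive to it, of which 3 were harvested after 4 h, 3 after 16 h and 2 after 48 h. Resistant tumours, harvested on day 26, had received LDE225 in 2 daily doses, 2 of them at 20 mg/kg/day and 3 at 160 mg/kg/day. Since the vehicle RNA arrays are all from 4 h, 16 h or 48 h, resistance and time on study cannot be told apart. The labels give no age for the mice.

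Macrophages are phagocytes that clear dying cells and debris, and microglia are their relatives in the brain. The genes followed here are shared by both, so they do not separate them, and the grafts grew under the skin. Csf1r is the receptor through which the growth factors Csf1 and Il34 keep these cells alive, and Adgre1 encodes the F4/80 surface antigen of mouse macrophages. C1qa, C1qb and C1qc encode the chains of C1q, which starts the classical complement pathway and marks dying cells for uptake. Tyrobp and Fcer1g are membrane adaptors that pass on signals from activating and Fc receptors, Cd68 is a glycoprotein of the lysosomal membrane, Ctss a lysosomal protease and Cd14 a co-receptor for bacterial lipopolysaccharide. Some of them are also made by other leukocytes, such as Fcer1g by mast cells and Tyrobp by natural killer cells. Lists for those cells could not be applied for want of probe set names, and their part in the results was not tested. In bulk tissue, fewer cells of a type and less RNA per cell cannot be told apart.

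The 3 C1q genes lie side by side on chromosome 4 in the order C1qb, C1qc, C1qa, with 0 other genes between them, in the RefSeq gene table of GRCm38.p6. The promoter table of the same build held 5 of the 10 genes, namely Cd68, C1qb, C1qc, Ctss and Fcer1g. The 250 bases before the gene start were searched on both strands for GAGGAA. This purine-rich box is known as a binding motif of the myeloid factor PU.1. A match was found in 4 of the 5, against 23.3% of 32841 promoters of the same length. The sequences of 3 of the 4 are shown 5′ to 3′ as the table gives them, with the match in capitals: C1qb at chr4:136886201-136886450 (minus strand), Ctss at chr3:95526536-95526785 (plus strand) and Cd68 at chr11:69666171-69666420 (minus strand).
C1qb: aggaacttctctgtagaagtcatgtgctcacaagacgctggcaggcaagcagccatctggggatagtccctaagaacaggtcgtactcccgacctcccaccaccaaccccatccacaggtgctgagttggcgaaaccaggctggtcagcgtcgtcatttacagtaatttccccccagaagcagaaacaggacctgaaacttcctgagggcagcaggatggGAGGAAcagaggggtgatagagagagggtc
Ctss: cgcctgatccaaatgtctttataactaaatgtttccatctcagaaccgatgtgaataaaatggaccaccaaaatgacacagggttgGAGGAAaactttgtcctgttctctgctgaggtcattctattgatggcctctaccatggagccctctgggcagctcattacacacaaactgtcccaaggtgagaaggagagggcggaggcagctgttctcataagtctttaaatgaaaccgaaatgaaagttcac
Cd68: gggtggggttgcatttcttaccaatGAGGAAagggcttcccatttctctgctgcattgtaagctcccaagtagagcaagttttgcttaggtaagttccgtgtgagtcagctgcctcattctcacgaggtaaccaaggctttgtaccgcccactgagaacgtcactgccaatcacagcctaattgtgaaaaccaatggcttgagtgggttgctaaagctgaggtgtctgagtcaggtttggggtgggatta
The match in C1qc was on the opposite strand, and Fcer1g held none. A match is a description of the letters and was not tied to any binding measured here. No test was run on the count of matches, and whether these genes share a regulator was not tested.

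All 13 probe sets passed the filter on dim probe sets, and 12 reached the 40th percentile of signal on all 21 arrays. The exception was Cd14, which did so on 19. Array means of the deposited intensity lay between 221.4 and 256.4. Actin signal from the 3′ end divided by that from the 5′ end, which tracks how intact the RNA was, came to 1.25 to 1.40 on 9 arrays (resistant tumours and those of 48 h) and 1.53 to 1.91 on the other 12 (4 h and 16 h). Comparisons at 1 time lie within these sets. Those between vehicle tumours of 48 h and 4 h, and of resistant tumours with tumours of 4 h or 16 h, lie across them. The mean effect over the times and the effect at 48 h minus that at 4 h use arrays of both sets. In these, each effect at 1 time lies within 1 set. Levels given relative to vehicle tumours of 4 h lie across the sets for arrays of 48 h and of resistant tumours.

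After 48 h of LDE225 the macrophage markers stood higher than in any other tumour. Each of the 13 probe sets had its 2 highest values in the 2 treated tumours of 48 h. The lower of these values exceeded the highest of the other 19 arrays by a factor of 1.81 (C1qa) to 4.20 (Tyrobp), with a median of 2.45. Of all 32842 probe sets tested, 12.6% had both treated tumours of 48 h above the other 19.

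**Figure D1:**
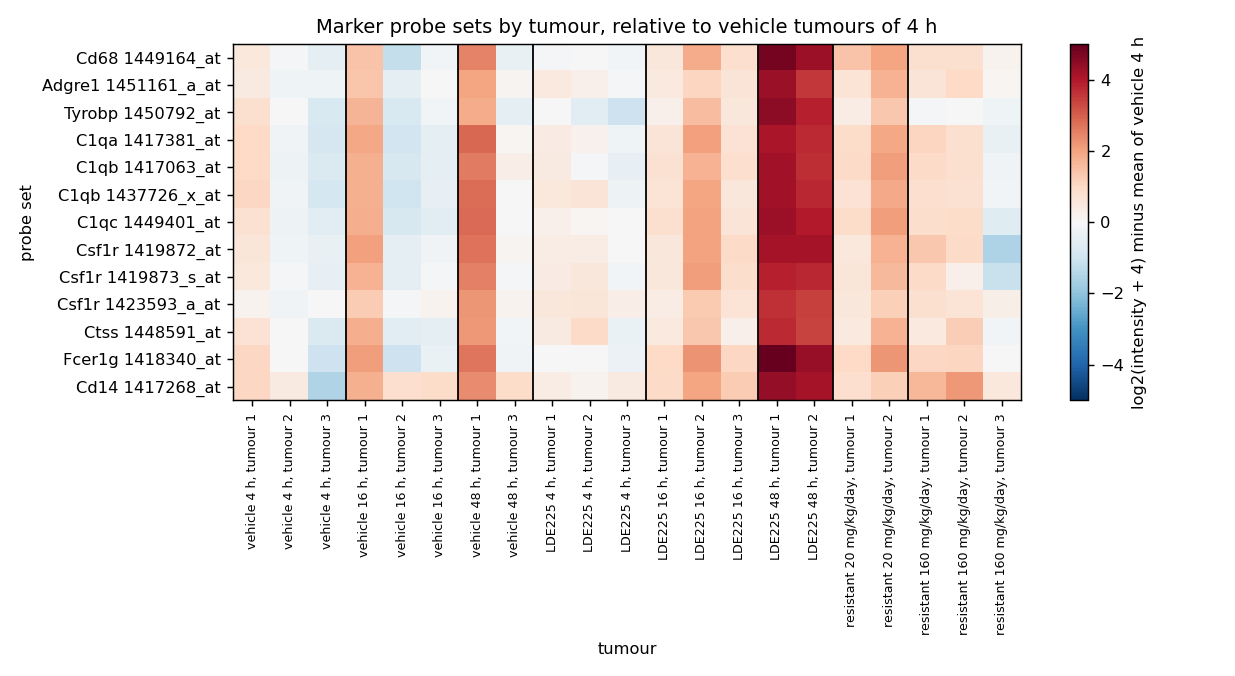
Each cell gives log2(intensity + 4) of a probe set (rows) in a tumour (columns, ordered by group) minus its mean in the 3 vehicle tumours of 4 h; red is higher and blue lower. The 2 treated tumours of 48 h are the darkest red in every row, and the third highest value in every row is vehicle tumour 1 of 48 h.

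Of the membrane adaptors, Tyrobp had intensities of 295.3, 167.5 and 98.3 in vehicle tumours at 4 h, 566.6, 98.0 and 154.3 at 16 h, and 618.5 and 118.9 at 48 h. Under LDE225 it had 170.6, 117.8 and 81.9 at 4 h, 205.0, 506.7 and 250.1 at 16 h, and 3827.1 and 2600.6 at 48 h. The treated tumours overlapped with vehicle at 4 h and 16 h and lay above all vehicle tumours at 48 h. There Tyrobp rose 11.4-fold, or 3.51 ± 0.71 on the log2 scale (difference ± standard error, as in all that follow; limma, adjusted p = 0.0015). Fcer1g went the same way, from 595.4 and 78.4 in the vehicle tumours of 48 h to 3020.9 and 1943.1 in the treated ones. The rise was 3.45 ± 0.88 in log2 (limma, adjusted p = 0.0082). Treated tumours of 4 h had 90.8, 92.2 and 71.8 for Fcer1g and those of 16 h had 182.7, 447.3 and 187.0, all inside the span of 41.2 to 595.4 of the 8 vehicle tumours.

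Cd68, of the lysosomal membrane, stood at 121.9, 77.9 and 59.3 in vehicle tumours at 4 h, 230.5, 33.5 and 74.6 at 16 h, and 479.8 and 63.7 at 48 h. The treated tumours had 76.9, 84.4 and 74.4 at 4 h, 124.2, 313.5 and 151.6 at 16 h, and 2410.8 and 1698.2 at 48 h. Cd68 thereby rose 11.2-fold at 48 h, 3.49 ± 0.72 in log2 (limma, adjusted p = 0.0018). The protease Ctss had 968.0 and 191.4 in vehicle and 2866.6 and 2255.5 in treated tumours of 48 h, a rise of 2.55 ± 0.76 in log2 (limma, adjusted p = 0.02). Both lysosomal genes thus lay higher in each treated tumour of 48 h than in each vehicle tumour.

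Among the surface receptors, Adgre1 had 60.1, 36.3 and 36.1 in vehicle tumours at 4 h, 118.3, 29.1 and 42.9 at 16 h, and 178.7 and 47.9 at 48 h. Treated tumours had 61.7, 51.9 and 41.2, then 62.7, 95.3 and 69.1, and at 48 h 932.0 and 545.0. Its rise at 48 h was 2.88 ± 0.56 in log2 (limma, adjusted p = 0.0011), with the lowest adjusted p of the 13. Cd14 had 78.9 and 26.3 in vehicle and 335.7 and 284.2 in treated tumours of 48 h, a rise of 2.64 ± 0.65 in log2 (limma, adjusted p = 0.0063). The value of Cd14 was 1.7 in vehicle tumour 3 of 4 h, below the offset of 4 added before taking logs.

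The 3 probe sets of Csf1r moved alike. Of these, 1419872_at had 266.1, 151.3 and 132.5 in vehicle tumours at 4 h, 731.3, 128.6 and 153.1 at 16 h, and 1182.2 and 194.2 at 48 h. In treated tumours it had 229.9, 226.6 and 179.8 at 4 h, 259.4, 715.1 and 339.5 at 16 h, and 3210.9 and 3213.0 at 48 h. The 2 treated tumours of 48 h were nearly equal, and the 2 vehicle tumours lay far apart. At 48 h the log2 differences were 2.73 for 1419872_at, 2.61 for 1419873_s_at and 2.36 for 1423593_a_at (standard errors 0.88, 0.77 and 0.50; limma, adjusted p = 0.031, 0.02 and 0.0021). The last had the lowest fold of all 13, at 5.12. By its suffix, 1419873_s_at may also detect other transcripts, and the same holds for 1437726_x_at of C1qb.

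Of the complement genes, C1qa had 419.1, 182.4 and 115.4 in vehicle tumours at 4 h, 799.3, 106.0 and 146.4 at 16 h, and 1559.9 and 222.4 at 48 h. In treated tumours it had 274.7, 243.8 and 179.9, then 325.2, 861.0 and 343.0, and at 48 h 3568.2 and 2826.0. At 48 h it rose 2.42 ± 0.85 in log2 (limma, adjusted p = 0.047), the call nearest the threshold among the 13. C1qc had 850.8 and 113.6 in vehicle and 2291.8 and 1856.9 in treated tumours of 48 h (2.70 ± 0.82 in log2, limma, adjusted p = 0.023). C1qb 1417063_at had 986.7 and 197.9 in vehicle and 3004.9 and 2084.2 in treated tumours of 48 h, so that all C1q genes lay higher in both treated tumours. For C1qb the log2 differences were 2.49 by 1417063_at and 2.60 by 1437726_x_at (limma, adjusted p = 0.023 and 0.032).

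**Figure D2:**
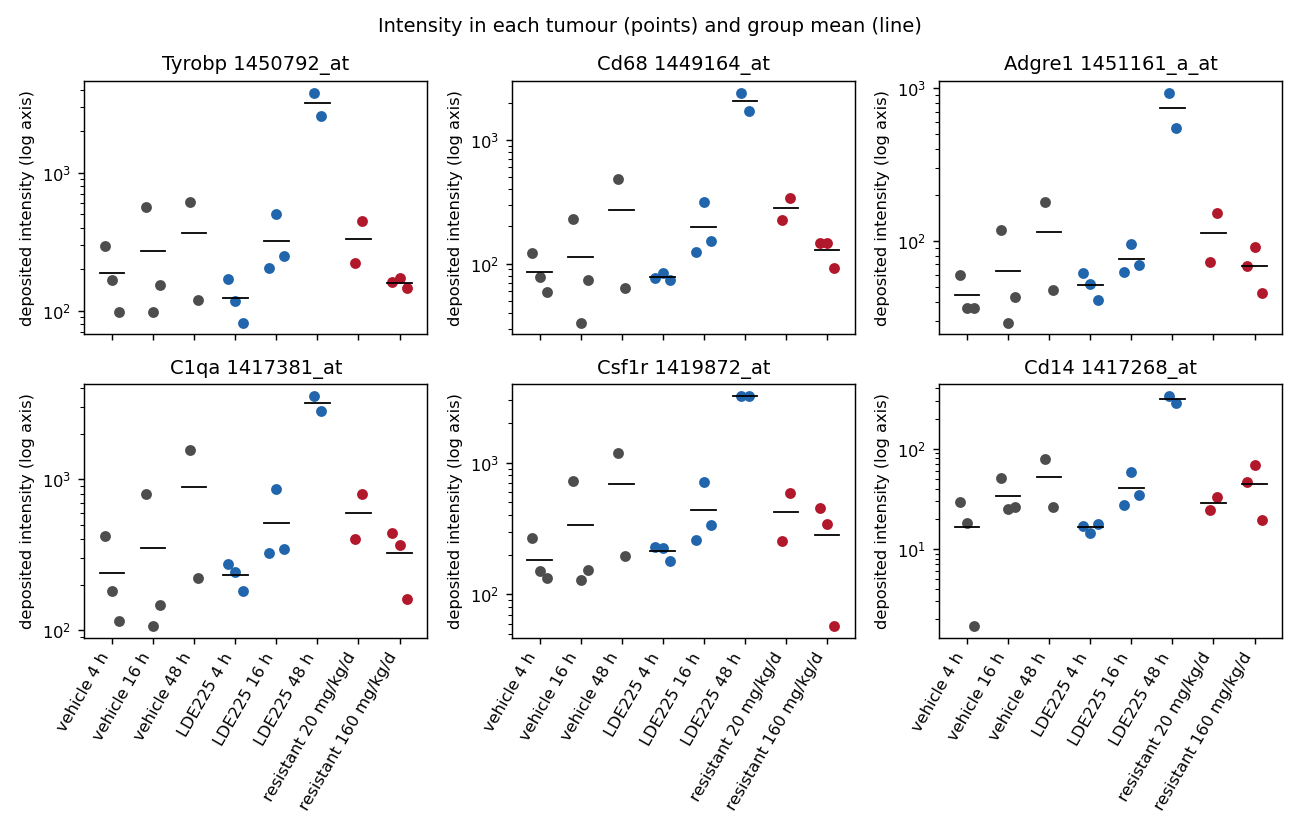
Points are the deposited intensities of single tumours on a log axis and lines are group means, for 1 probe set each of 6 genes, with vehicle in grey, LDE225 in blue and resistant tumours in red. In each panel both treated tumours of 48 h lie above all others, while the 2 vehicle tumours of 48 h lie far apart.

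Counted over the list, 13 of 13 probe sets rose at 48 h, and the share called higher among all probe sets tested was 11.6% (limma, adjusted p below 0.05). The list was chosen with earlier results of these data known. Its probe sets also moved together (median Pearson's r of 0.96 over 21 arrays), so these are not 13 independent results. The median log2 difference of the 13 was 2.64, with a range of 2.36 to 3.51, against a median of 0.09 over all probe sets tested. No overlap between treated and vehicle tumours, with treated higher, was seen for 13 of 13, against 35.2% of all. Leaving out 1 of the 2 tumours of a side leaves an arm of 1 tumour, which the fit assumes to vary like the other groups. Without vehicle tumour 3, the low one, 1 of 13 passed (Adgre1, log2 difference 1.97, limma, adjusted p = 0.045), which is near the 8.71% of all probe sets called in either direction, and the median difference was 1.39. Without LDE225 tumour 1, 5 passed against 13.7% of all, and without LDE225 tumour 2, 6 passed against 12.6%. Without vehicle tumour 1 all 13 did, against 21.1%. A fit of the 4 arrays of 48 h by themselves called 5, against 18.3% of all. The shares given for these reduced fits count calls in either direction, unlike the 11.6% above. In the fit of the 4 arrays, 51.3% of all calls were higher. Set against vehicle tumours of all 3 times, an alternative chosen after seeing the data, 13 of 13 passed with a median log2 difference of 3.48 and adjusted p of at most 0.00065 (limma). In that comparison, which lies across the sets of actin ratio, 37% of all probe sets were called in either direction.

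At 4 h, 0 of the 13 passed, against 0.104% of all probe sets, and 0 had an unadjusted p below 0.05 (limma), against 6.36% of all. Their log2 differences ran from -0.51 (Tyrobp) to 0.50 (Csf1r 1423593_a_at), with 9 above and 4 below 0 (10 and 3 after quantile normalisation). Treated tumours lay above vehicle without overlap for 1 of the 13, Csf1r 1423593_a_at, against 7.27% of all. At 16 h, again 0 of 13 passed (limma), against 14.4% of all, and 0 had an unadjusted p below 0.05, against 27.1%. The log2 differences at 16 h were all above 0, from 0.22 for Cd14 to 1.19 for Fcer1g with a median of 0.77, and their standard errors ran from 0.40 to 0.72. Vehicle tumour 1 of 16 h and LDE225 tumour 2 of 16 h each had the highest value of their group for all 13 probe sets. The sides overlapped at 16 h for each of the 13, while 20.7% of all probe sets had treated tumours above vehicle without overlap.

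Averaged over the 3 times, 11 of the 13 were higher under LDE225, against 12.2% of all probe sets called higher (limma). The others were C1qa (log2 difference 1.18, adjusted p = 0.058) and Csf1r 1419872_at (log2 difference 1.23, adjusted p = 0.055). Values called by this average rest on the same 48 h arrays as above. The count was 6 without a mean-variance trend, where 20.6% of all probe sets were called in either direction. In the fits that follow, that share was 14.6% to 21.9%. Among tumours of 48 h, it was 3 with either vehicle tumour 3 or LDE225 tumour 1 left out and 5 with LDE225 tumour 2 left out. Among those of 16 h, it was 4 with vehicle tumour 2 or LDE225 tumour 2 left out and 6 with vehicle tumour 3 left out. At 4 h, leaving out vehicle tumour 2 or 3 gave 6 and 5, and leaving out LDE225 tumour 1 or 2 gave 5 and 6.

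Whether the effect itself changed with time was tested directly. Between 48 h and 4 h the effect of LDE225 was larger for 4 of the 13, against 6.1% of all probe sets called with a higher effect. These were Tyrobp (difference of log2 effects 4.02, standard error 0.92, adjusted p = 0.0074), Cd68 (3.56, standard error 0.93, adjusted p = 0.017), Fcer1g (3.54, standard error 1.14, adjusted p = 0.047) and Adgre1 (2.65, standard error 0.72, adjusted p = 0.021), by limma. For the other 9 the difference lay between 1.86 (Csf1r 1423593_a_at) and 2.59 (C1qc), with adjusted p from 0.063 to 0.19 (limma). The count was 13 without vehicle tumour 1 of 48 h (13.7% of all probe sets called in either direction), 0 without vehicle tumour 3 (4.64%) and 1 without LDE225 tumour 1 (8.15%), each again with an arm of 1 tumour. Between 16 h and 4 h, 0 of 13 passed (limma), against 3.83% of all, and 0 had an unadjusted p below 0.05, against 17.5%.

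**Figure D3:**
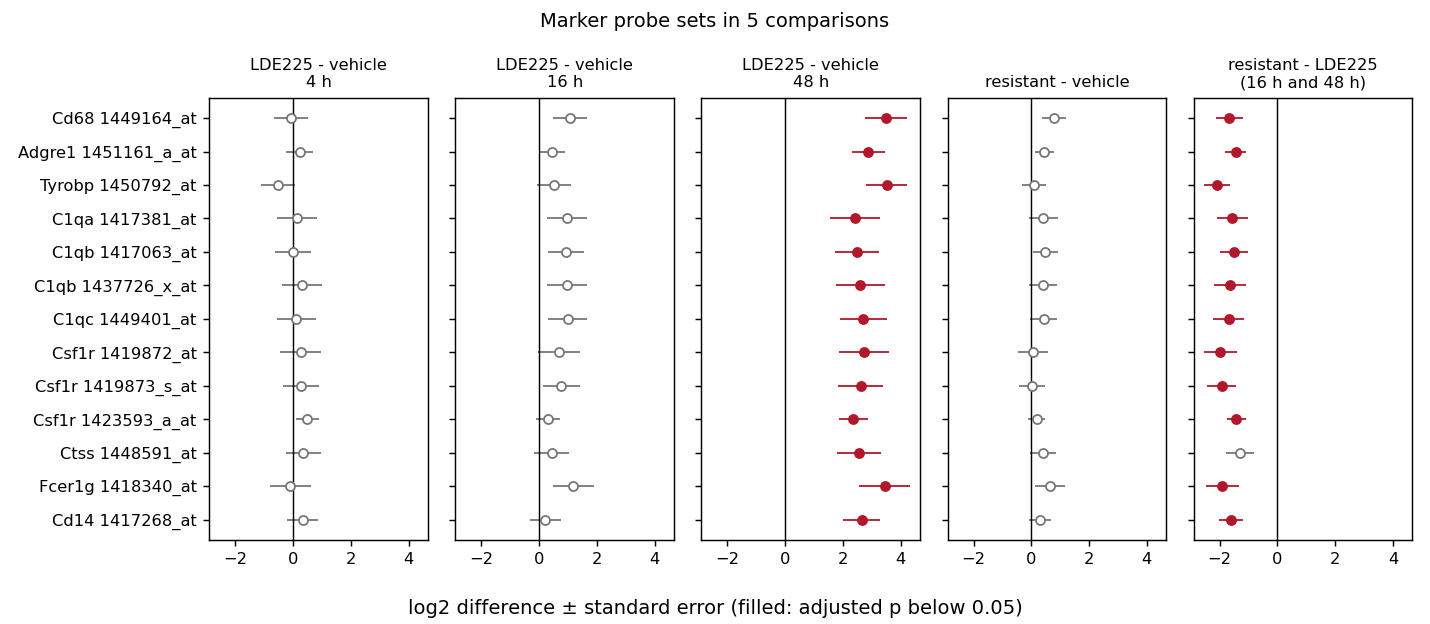
Each point is the log2 difference of a probe set with its standard error from the limma fit, in 5 comparisons sharing 1 axis; filled red points had an adjusted p below 0.05. All 13 points are filled and right of 0 at 48 h, none is filled at 4 h, at 16 h or for resistant against vehicle tumours, and 12 are filled and left of 0 for resistant against treated tumours.

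Among untreated tumours the markers varied widely. Vehicle tumour 1 of 48 h exceeded tumour 3 of 48 h by 3.0-fold (Cd14) to 7.59-fold (Fcer1g) and was the highest of the 8 vehicle tumours for all 13 probe sets. Its actin ratio (1.30) and that of tumour 3 (1.25) were alike. Vehicle tumours of 48 h did not pass against those of 4 h for any of the 13 (0.746% of all called, limma). Here 3 of 13 had an unadjusted p below 0.05 (limma), those of Cd14, Csf1r 1423593_a_at and C1qb 1417063_at, against 11.9% of all probe sets. The log2 differences ran from 0.67 (Tyrobp) to 1.63 (Cd14). For Cd14 they include vehicle tumour 3 of 4 h at an intensity of 1.7, below the offset of 4. Without that tumour the log2 differences of the 13 ran from 0.29 to 1.24. The SD within groups on the log2 scale was 0.56 to 1.05 for the 13, with a median of 0.91, against a median of 0.33 for all probe sets tested.

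The markers tended to be high in the same tumours. Expressed as the mean over the 10 genes relative to vehicle tumours of 4 h, the log2 level was 4.32 and 3.89 in treated tumours of 48 h and 2.44 and 0.02 in vehicle tumours of 48 h. At 16 h the vehicle tumours had 1.74, -0.62 and -0.17 and the treated ones 0.64, 1.78 and 0.74. Treated tumours of 4 h had 0.28, 0.21 and -0.19, and vehicle tumours of 4 h spread from -0.72 to 0.78. Across the 21 arrays the correlation between probe sets was high, with a median Pearson's r of 0.96 over 78 pairs, a lowest of 0.86 (Csf1r 1419873_s_at with Cd14) and a highest of 0.994 (C1qa with C1qb 1437726_x_at). These 21 points share their groups, so the same was computed on deviations from the group means, where the median was 0.93. Cd14 was the least alike there, with r of 0.62 to 0.82 to the other 12. Without the 2 treated tumours of 48 h the median was 0.91 over 19 arrays. These are descriptions over arrays that also share scaling and labelling.

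**Figure D4:**
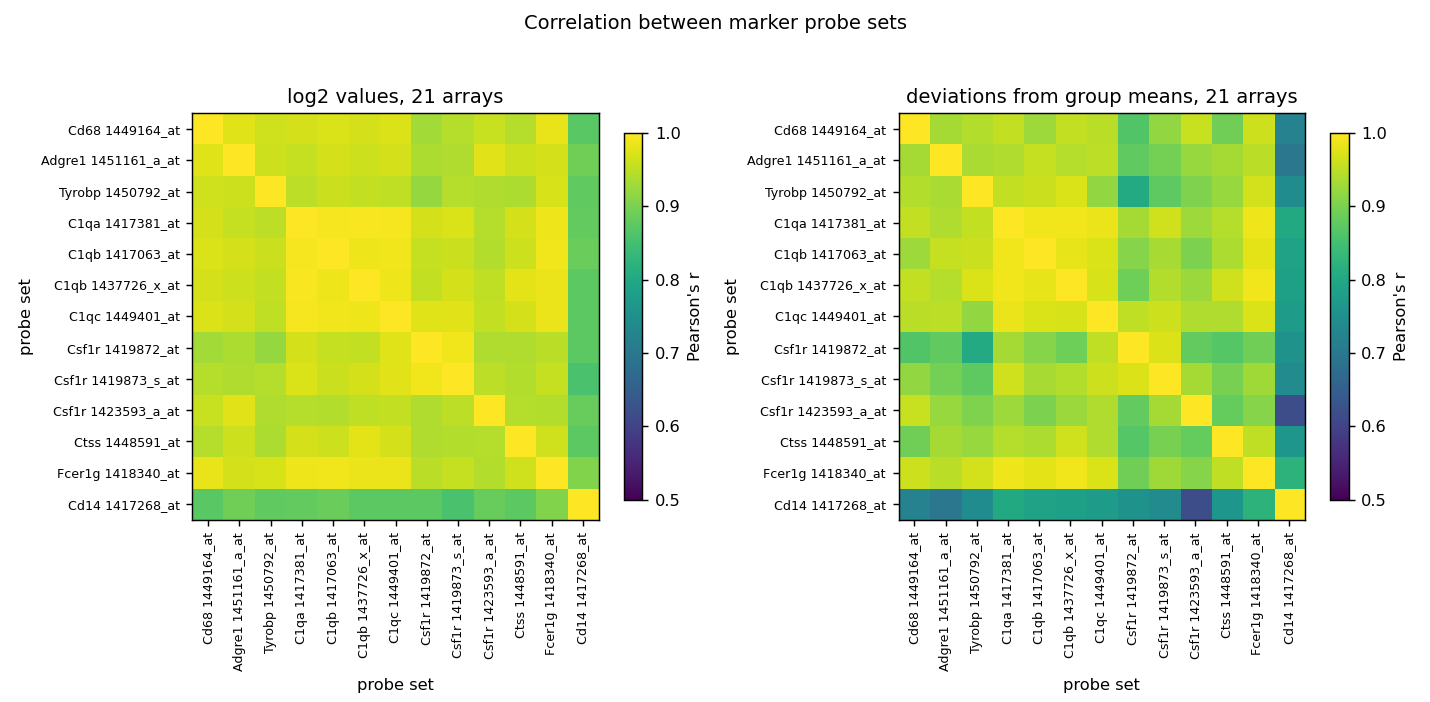
Pearson's r between each pair of the 13 probe sets over 21 arrays, for log2 values (left) and for deviations from group means (right), on a colour scale from 0.5 to 1. The pair with the highest r in both is C1qa with C1qb 1437726_x_at, and the row of Cd14 is the darkest in both.

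Other probe sets followed the same pattern. The most alike, by correlation with the mean of the standardised values of the 10 genes, were 1448620_at (r = 0.992 over 21 arrays) and 1450241_a_at (r = 0.991), whose genes the tables used here do not give. Their r without the treated tumours of 48 h was 0.979 and 0.976. Of 32829 other probe sets, 333 had an r above 0.9. Probe set 1448620_at averaged 200 ± 230 (SD, n = 2) in vehicle and 1327 ± 220 (n = 2) in treated tumours of 48 h.

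In resistant tumours the markers lay mostly within the range of vehicle tumours. For all 13 the top of that range was vehicle tumour 1 of 48 h, at 1.09 to 2.08 times the next highest vehicle tumour. The share of values inside the range was not computed over all probe sets, so the count that follows has no background to be set against. All 13 probe sets had an SD within groups above the median of all probe sets tested, which goes with a wide vehicle range. The values are also correlated readings of the same 5 tumours. Of 65 values (13 probe sets in 5 tumours), 63 lay inside the range of the 8 vehicle tumours, 0 above it and 2 below it. The 2 below were those of Csf1r by 1419872_at and 1419873_s_at in tumour 3 of 160 mg/kg/day, at 57.5 and 24.6. In that tumour Csf1r 1423593_a_at had 37.2, within the vehicle range of 26.1 to 152.3, so the probe sets of this gene disagreed there. Resistant tumours at 20 mg/kg/day had 227.1 and 340.8 for Cd68, and those at 160 mg/kg/day had 148.2, 146.2 and 93.0. For Tyrobp they had 223.4 and 443.9, then 161.0, 172.4 and 145.5, and for C1qa 398.1 and 795.7, then 440.5, 366.8 and 160.2. For Adgre1 they had 72.3 and 150.9, then 68.7, 90.6 and 45.7. The adaptor Fcer1g had 182.2 and 428.4 at the lower dose and 185.8, 193.5 and 90.1 at the higher. The protease Ctss had 301.9 and 724.1, then 304.5, 507.2 and 195.9, and Cd14 had 24.7 and 33.3, then 46.7, 68.2 and 19.6. Tumour 2 of 20 mg/kg/day was the higher of its pair, and tumour 3 of 160 mg/kg/day the lowest of its group, for all 13 probe sets.

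Against vehicle tumours of the 3 times, 0 of the 13 passed (limma), while 10.8% of all probe sets did, and 0 had an unadjusted p below 0.05, against 25.8% of all. The log2 differences ran from 0.03 (Csf1r 1419873_s_at) to 0.78 (Cd68), with standard errors of 0.29 to 0.51, and after median scaling 3 of the 13, after quantile normalisation 2, were below 0. Their direction depended on the vehicle tumours used: against those of 48 h alone, which shared the actin ratio of the resistant arrays, 12 of 13 were below 0, with a range of -0.74 to 0.08, and 0 passed (limma, adjusted p from 0.70 to 0.98), against 1.34% of all. Without vehicle tumour 1 of 48 h, 1 of 13 passed, Cd68 with a log2 difference of 1.26 (limma, adjusted p = 0.035), a count no higher than the background of 9.09% of all probe sets.

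Against the mean of tumours still sensitive under LDE225 at 16 h and at 48 h, 12 of the 13 were lower in resistant tumours (limma). Of all probe sets, 13.2% were called lower. This comparison shares the resistant arrays with the last and the treated arrays with the first. Tyrobp fell furthest, to a level 4.27-fold lower (-2.09 ± 0.46 in log2, limma, adjusted p = 0.0023), followed by Csf1r 1419872_at (-1.97 ± 0.57, limma, adjusted p = 0.014). For Ctss the difference was -1.30 and did not pass (standard error 0.49, limma, adjusted p = 0.057). On this comparison 0 of 13 were lower without overlap, against 4.01% of all. The median of the 13 was -1.63, against -0.01 over all probe sets tested. Set against the treated tumours of 48 h alone, within 1 set of actin ratio, 13 of 13 passed with a median of -3.09 and adjusted p of at most 0.0041 (limma), against 29.9% of all called in either direction. Resistant tumours and treated tumours of 16 h overlapped in level for Tyrobp, at 145.5 to 443.9 and 205.0 to 506.7. In the log2 mean over the 10 genes, relative to vehicle of 4 h, treated tumours had 1.06 at 16 h and 4.10 at 48 h. Resistant tumours had 1.29 at 20 mg/kg/day and 0.55 at 160 mg/kg/day, on either side of treated tumours of 16 h. A comparison with treated tumours of 16 h alone was not tested. The doses and schedules of these groups also differed. Leaving out resistant tumour 1 of 20 mg/kg/day gave 5 (19.8% of all called in either direction), and leaving out LDE225 tumour 1 of 48 h gave 6 (19.7%). The count was 8 on leaving out resistant tumour 3 of 160 mg/kg/day, or LDE225 tumour 2 of either 16 h or 48 h, where 20% to 26.5% of all were called.

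Between the doses, 0 of the 13 passed (limma), against 0.773% of all, and 0 had an unadjusted p below 0.05, against 13.6%. The log2 difference of 160 from 20 mg/kg/day was below 0 for 12, down to -1.11 (Cd68), and 0.43 for Cd14, with standard errors of 0.45 to 0.80. Values did not overlap between the doses, with 160 mg/kg/day lower, for 2 of the 13 (Cd68 and Tyrobp), against 15.2% of all probe sets.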

How the data were processed

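RNA of 21 tumours was measured on Affymetrix arrays. The expression values are linear probe-set intensities deposited by the authors and, per the submitters' processing notes, come from MAS5; its version and scaling target are not given in the sources used here. An offset of 4, the 20th percentile of all values, was added before log2, which understates changes of dim probe sets, and fold changes are on that scale. Control probe sets (64) were left out, and a probe set entered if it reached the 40th percentile of its array on at least 2 arrays, which left 32842. One model over 8 groups was fitted in R 4.3.3 by limma 3.58.1, which let the variance follow mean signal, with 13 residual degrees of freedom, two-sided tests and Benjamini-Hochberg adjustment over all probe sets tested at a threshold of 0.05. Combined sides weight their groups equally. The model was also run on simulated data, with independent noise of the same spread in all groups for a probe set. The markers moved together and their groups spread unequally, so that run does not bear on their calls at 48 h.

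The rule for named genes was all 13 probe sets, whatever their result, and the 2 most alike others. The members and lists were chosen with earlier results of these data known. The lists of other cell types in the design could not be applied, since no table used here pairs probe sets with genes. Each tumour came from its own mouse. The p-values rest on a variance per probe set pooled over the 8 groups, and the number of tumours limits the precision. The groups spread unequally. The mean log2 level of the marker genes had an SD of 1.71 in vehicle tumours of 48 h (n = 2). It was 0.30 in treated tumours of 48 h (n = 2) and 0.25 in those of 4 h (n = 3). At 48 h the pooled variance is thus not that of the tumours compared. From the arrays of 48 h alone, 5 of the 13 were called (limma). No 2 arrays held identical values. The labels do not say that a mouse number is shared between groups, so the numbers were not taken as pairs. Same-numbered mice of vehicle and treated groups had correlations of their deviations from -0.20 to 0.18, above 0.1 in 3 of 7 pairs. With so few tumours per group the deviations constrain one another, so these correlations cannot decide on pairing. DNA arrays of the series were not used here. Other offsets, scalings, filters, variance models, sample choices and a block were tried. Promoters came from RefSeq (GRCm38.p6). Figures were drawn with matplotlib 3.10.9.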

Additional observations from a re-analysis of the deposited data

Results flagged for a closer look

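The effect of LDE225 differed between 48 h and 4 h in a direct test (limma, adjusted p below 0.05) for 4 of the 13 probe sets, against 6.1% of all probe sets called with a higher effect and 12.8% in either direction. The difference of the log2 effects, 48 h minus 4 h, was 4.02 for Tyrobp, 3.56 for Cd68, 3.54 for Fcer1g and 2.65 for Adgre1. All 4 kept their direction without each tumour in turn, and 0 passed without vehicle tumour 3 of 48 h, which leaves 1 vehicle tumour at that time.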

How the results depend on the processing

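The number of the 13 probe sets called was within 1.5 times that reported under the other offsets, scalings and filters, without a trend, with array weights, from the compared groups alone and against other control tumours, with 3 exceptions. At 48 h it was 5 instead of 13 from the arrays of the groups compared only, in the mean of 3 times 6 instead of 11 without a mean-variance trend, and for the effect at 48 h minus 4 h 8 instead of 4 with array weights. Leaving out each tumour in turn gave 1 to 13 at 48 h, 3 to 13 for the mean of 3 times, 0 to 13 for the effect at 48 h minus 4 h, 0 to 1 for resistant against vehicle and 5 to 13 for resistant against sensitive tumours under LDE225, and 0 in the other comparisons. The cause was not tested. Each of these fits lacks 1 tumour, and groups of 2 then hold 1, assumed to vary like the others. C1qa at 48 h had the call closest to the threshold: its adjusted p (limma) was 0.052 with an offset of 1, 0.051 with median scaling, 0.056 with no filter, 0.079 without a trend and 0.099 from the 4 arrays of 48 h. A replicate block on mouse number gave 12 instead of 13 at 48 h, with a median log2 difference of 2.20, and moved no other count by over 1.5 times; the labels give no pairing. Over 2496 member values under alternatives, the sign differed from that reported in 84, none of which passed the test. Median scaling moved the share of higher among all calls at 48 h from 51.2% to 31.8% and for resistant against vehicle tumours from 60.1% to 27.7%, and shifted the median log2 difference at 48 h of all probe sets to -0.15 and of the 13 to 2.41. At 16 h that share went from 54.7% to 32%. Among all probe sets, where a setting moved the number of calls by over 1.5 times, 34 at 4 h became 17 to 118, 245 between vehicle times 34 to 650, 254 between doses 0 to 136, 1258 for the effect at 16 h minus 4 h 2006 to 2501, and 4727 at 16 h 7220 with array weights. For resistant against vehicle tumours, 3540 became 2004 from the groups compared only and 441 against vehicle of 48 h alone, and 7462 at 48 h became 12165 against vehicle tumours of all 3 times. The number of arrays, 2 in some groups, limits the precision.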
